A study of Mus musculus with 16 samples.

Results

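The genes described here are 10 genes of stratified and simple epithelium that were picked because several of them were higher in muscle carrying a Galgt2 transgene. They are Trp63, Perp, Dsp, Jup, Pkp2, Krt8, Krt18, Krt5, Krt14 and Lce1f. They were found by gene symbol on an Affymetrix mouse expression array, which gave 23 probe sets of 45101 and 10 genes of the 18194 that have a probe set of their own. They were chosen by their intensities in transgenic and transgenic mdx muscle relative to wild-type and mdx muscle, so values in those comparisons are given as a description with no test. The comparison of AAV-Galgt2 with PBS uses arrays that played no part in the choice of the genes, and it was tested. Its spread was estimated over all 12 muscle arrays, those of the choice included. The probe set read for each gene was also picked by its mean over these 12 arrays. The comparison of mdx with wild type was tested as well, but its arrays were the controls of the choice, so its results on these genes are not independent of it.

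Muscle was gastrocnemius of male mice aged 2 months, with 2 arrays in each of 6 groups. Wild-type mice were C57BL/6J. The mdx mice were C57BL/10J and lack dystrophin, the protein that ties the muscle fibre's actin cytoskeleton to its membrane. Galgt2 transgenic mice were C57BL/6J, and the transgenic mdx mice were a cross of C57BL/10J and C57BL/6J. In the remaining groups an mdx gastrocnemius of C57BL/10J mice received an adeno-associated virus carrying Galgt2, and the opposite muscle received phosphate-buffered saline (PBS). Galgt2 is the glycosyltransferase gene B4galnt2, whose enzyme adds a terminal N-acetylgalactosamine to glycans. The labels name neither the promoter of the transgene nor the serotype or dose of the virus, and substrain differs between groups that are compared. They also do not say that the 2 arrays of a group came from separate mice, so p-values speak only of spread among these arrays, which may be technical. C2C12 cells, a mouse myoblast line, were measured with and without Galgt2 as myoblasts and as myotubes, with 1 array each.

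Desmosomes are the adhesive plaques that hold epithelial and heart muscle cells together. In them desmosomal cadherins bind plakoglobin (Jup) and plakophilins, which bind desmoplakin (Dsp), and desmoplakin anchors intermediate filaments. These filaments are keratin pairs in epithelium (Krt8 with Krt18 in simple epithelium, Krt5 with Krt14 in the basal layer of skin) and desmin in muscle. The p53 relative p63, encoded by Trp63, is a master regulator of stratified epithelium, and Perp is a tetraspan membrane protein of desmosomes and a known p63 and p53 target. Skeletal muscle fibres have no classical desmosomes.

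Promoter sequence was supplied for 6 of the 10 genes, from RefSeq on GRCm38.p6. Shown are the 250 bases before the start of 3 genes whose level was higher with the transgene, Dsp, Krt8 and Krt18, and of Krt5, whose level was not. Capitals mark the E-box letters CANNTG, which read the same on both strands.
Dsp, chr13:38151044-38151293, plus strand: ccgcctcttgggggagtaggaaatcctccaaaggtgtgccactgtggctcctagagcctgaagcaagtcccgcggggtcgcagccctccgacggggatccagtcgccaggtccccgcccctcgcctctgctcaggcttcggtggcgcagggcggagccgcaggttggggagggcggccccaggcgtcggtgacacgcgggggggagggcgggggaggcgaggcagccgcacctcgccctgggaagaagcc
Krt8, chr15:102004343-102004592, minus strand: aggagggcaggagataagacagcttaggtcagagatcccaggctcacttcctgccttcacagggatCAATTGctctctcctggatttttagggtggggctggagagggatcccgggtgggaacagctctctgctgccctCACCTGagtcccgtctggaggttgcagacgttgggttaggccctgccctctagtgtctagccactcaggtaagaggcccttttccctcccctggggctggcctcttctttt
Krt18, chr15:102027966-102028215, plus strand: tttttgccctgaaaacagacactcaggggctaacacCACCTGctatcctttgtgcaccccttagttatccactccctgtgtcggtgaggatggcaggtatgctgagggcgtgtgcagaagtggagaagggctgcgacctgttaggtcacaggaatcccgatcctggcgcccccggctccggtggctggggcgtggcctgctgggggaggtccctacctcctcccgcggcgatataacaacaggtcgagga
Krt5, chr15:101712906-101713155, minus strand: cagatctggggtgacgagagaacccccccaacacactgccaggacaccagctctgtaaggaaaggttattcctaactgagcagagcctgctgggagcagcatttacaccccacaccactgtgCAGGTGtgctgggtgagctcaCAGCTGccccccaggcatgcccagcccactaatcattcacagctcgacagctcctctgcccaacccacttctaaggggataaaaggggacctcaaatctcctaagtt
The E-box letters occurred 2 times in Krt8, 1 time in Krt18, 2 times in Krt5 and 0 times in Dsp, and 66.2% of 32851 promoter windows of this length held them. The letters searched for a p53 family site (a pair of CATG cores 6 bases apart, both strands, in 0.49% of windows), for grainyhead factors (AACCNGGTT, both strands, in 0.24%) and for AP-1 (TGANTCA, both strands, in 6.75%) were not found in these 4 windows. These matches describe letters only.

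Deposited values are intensities, and all levels below are their log2, with each gene read from its brightest probe set. The arrays form 3 sets. Array medians were 57.7 to 63.9 for wild-type, mdx, transgenic and transgenic mdx muscle, 25.3 to 25.7 for the injected muscles and 57.2 to 60.4 for the cell lines, and no level was set against one from another set. B4galnt2 was at 13.17 and 13.32 in transgenic muscle, with 13.28 and 13.34 in the transgenic mdx group and 4.61 and 4.94 in wild type. It stood at 10.54 and 10.56 after AAV-Galgt2 and at 5.27 and 4.26 after PBS. In mdx muscle it was 3.86 on the array of replicate 1 and 7.78 on that of replicate 2. Dmd, the dystrophin gene, was at 11.14 and 11.16 in wild type. It stood at 8.52 and 8.13 in mdx and at 9.86 and 9.87 in transgenic mdx muscle. The second transgenic mdx array had a Gapdh 3′ to 5′ probe ratio of 1.23 on the log2 scale, against 0.18 to 0.48 on the other 7 arrays of its set. Replicate arrays correlated at r of 0.977 to 0.993 across genes. The lower quartile of all genes' levels lay at log2 4.09 to 4.21 in the first set, so levels near 4 or below are at the dim end of the arrays. Shifting the arrays of a set to one median lowered the median difference over all genes by 0.11 in transgenic against wild type and 0.14 in mdx against wild type, and the share of called genes that were higher went from 67.4% to 56.9% and from 68.9% to 49.4%. In transgenic mdx against wild type that share went from 67.5% to 53.9%. In bulk muscle, a change in the number of cells of one type and a change in RNA per cell cannot be told apart.

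Most of these genes were at a higher level in both groups with the transgene, and the skin basal keratins were not among them. In transgenic against wild-type muscle, 7 of the 10 genes had both arrays above both wild-type arrays, where 20.5% of all genes did. Those 7 were Trp63, Perp, Dsp, Pkp2, Krt8, Krt18 and Lce1f. In transgenic mdx against mdx muscle, 6 of the 10 had no overlap in that direction, where 21.8% of all genes did, the same names without Krt18. In transgenic mdx against wild-type muscle, 7 of the 10 lay above with no overlap, where 27.8% of all genes did. Because these comparisons chose the genes, the counts are a description. The first 2 of these comparisons share no arrays, and transgenic mdx against wild type shares arrays with both. The median difference over the 10 genes was 1.76 and 1.73 on the log2 scale, against -0.05 and -0.01 over all genes.

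**Figure D1:**
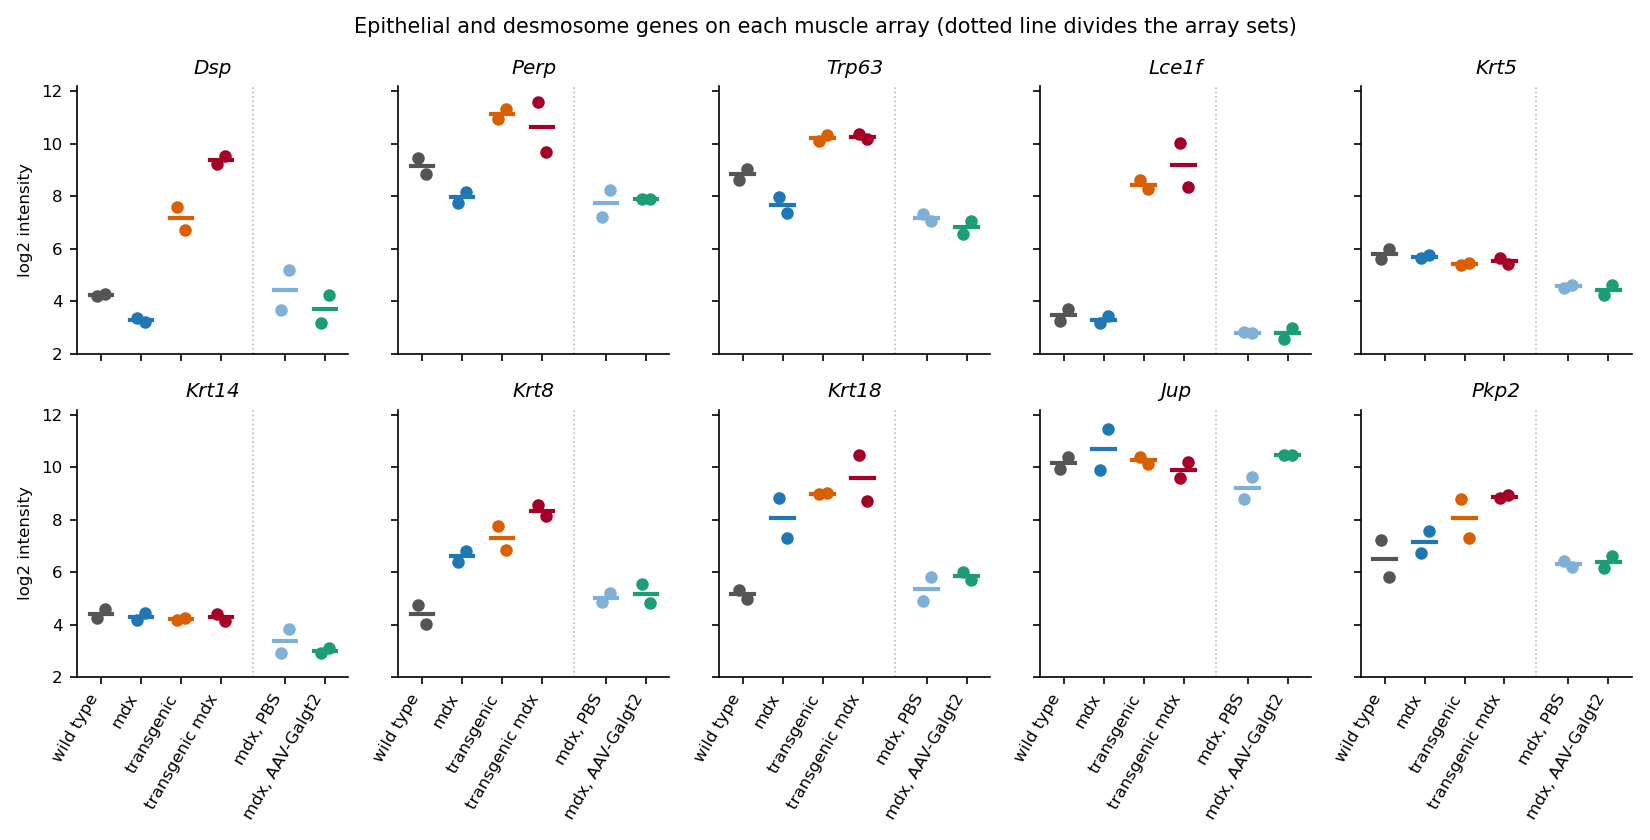
Log2 intensity of the 10 genes on each of the 12 muscle arrays. Points are arrays, bars are means of 2 arrays, and levels on the 2 sides of the dotted line are on different scales. The transgenic and transgenic mdx points of Dsp and Lce1f stand above all wild-type and mdx points, while those of Krt5 and Krt14 lie at the wild-type and mdx levels or just under them.

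Trp63 was higher in transgenic muscle, at 10.10 and 10.32, than in wild type, at 8.63 and 9.02. In transgenic mdx muscle it was at 10.37 and 10.17, and in mdx muscle at 7.98 and 7.36. The levels ran in the order mdx, wild type, then the 2 transgenic groups, whose arrays overlapped. The difference was 1.38 ± 0.27 (SE, n = 2 arrays a group), or 2.60-fold, against wild type and 2.60 ± 0.27, or 6.05-fold, against mdx. Of its 4 probe sets, 3 had no overlap with the controls in both comparisons, and the fourth, at 3.99 to 4.32 on the 8 arrays of this set, differed by -0.24 and -0.04. The 2 dimmer probe sets among those 3 gave 1.92 and 1.20 against wild type and 1.11 and 0.94 against mdx, and with the mean over all 4 the differences were 1.07 and 1.15.

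Perp stood at 10.93 and 11.33 in transgenic and at 9.46 and 8.85 in wild-type muscle. It was at 11.59 and 9.67 in transgenic mdx and at 7.75 and 8.15 in mdx muscle, so both transgenic groups lay above their controls. The differences were 1.97 ± 0.54 (3.93-fold) and 2.68 ± 0.54 (6.42-fold). The lower transgenic mdx value belongs to the array with the high Gapdh ratio, and the difference from mdx was 3.64 without that array and 1.72 without the other transgenic mdx array. Whether RNA quality has a part in this was not tested.

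Dsp, the plaque protein that holds the filaments, had, with Lce1f, the largest difference of the 10 genes between transgenic mdx and mdx muscle. It was at 9.23 and 9.53 in transgenic mdx, 7.58 and 6.73 in transgenic, 4.20 and 4.26 in wild-type and 3.36 and 3.19 in mdx muscle. No 2 of these groups overlapped. Dsp was 2.93 ± 0.48 (7.60-fold) above wild type in transgenic muscle and 6.11 ± 0.48 (68.9-fold) above mdx in transgenic mdx muscle. Of its 3 probe sets, the 2 that share the higher readings gave 2.93 and 1.90 against wild type and 6.11 and 5.16 against mdx. The remaining probe set stayed between 2.63 and 3.21 on all 8 arrays of this set.

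Pkp2, a plakophilin of heart and simple epithelia, was at 8.81 and 7.30 in transgenic and at 7.21 and 5.80 in wild-type muscle. It was at 8.82 and 8.93 in transgenic mdx and at 6.74 and 7.58 in mdx muscle. The differences were 1.55 ± 0.53 (2.92-fold) and 1.71 ± 0.53 (3.28-fold), and the lower transgenic array stood just above the higher wild-type array. Without 1 array of either group the first difference ranged from 0.79 to 2.30. Of its 4 probe sets, 4 had no overlap in the first comparison and 3 in the second, and the dimmest gave 0.38 and 0.39. With the mean over probe sets the first difference was 1.26.

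Jup, the plakoglobin shared by desmosomes and adherens junctions, did not follow the other plaque genes. It was at 10.41 and 10.13 in transgenic, 9.93 and 10.38 in wild-type, 9.60 and 10.20 in transgenic mdx and 9.91 and 11.46 in mdx muscle. All 4 groups overlapped. The differences were 0.11 ± 0.46 and -0.78 ± 0.46, and the latter was -0.01 without the second mdx array, -1.55 without the first and -0.48 without the first transgenic mdx array.

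The simple-epithelium keratins Krt8 and Krt18 were at their lowest in wild type among the 4 groups of this set. Krt8 was at 7.76 and 6.83 in transgenic muscle and 4.75 and 4.03 in wild type. Transgenic mdx arrays read 8.55 and 8.15, against 6.39 and 6.83 for mdx. Its difference was 2.90 ± 0.38 (7.49-fold) between transgenic and wild type and 1.75 ± 0.38 (3.35-fold) between transgenic mdx and mdx. All 3 probe sets, of which 2 are of a class that can also bind related transcripts, had no overlap in both comparisons. Krt18 was at 8.97 and 9.01 in transgenic muscle and 5.31 and 4.995 in wild type. Transgenic mdx arrays read 10.48 and 8.73, against 8.84 and 7.31 for mdx. For both genes wild type lay below the other 3 groups, and for Krt18 the mdx and transgenic mdx arrays overlapped. The differences were 3.84 ± 0.58 (14.3-fold) and 1.53 ± 0.58 (2.89-fold), and the second was 2.41 without the transgenic mdx array of high Gapdh ratio, 0.65 without the other transgenic mdx array and 0.77 without the second mdx array.

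Krt5 and Krt14, the pair that marks basal keratinocytes, were not higher in either transgenic group. Krt5 was at 5.38 and 5.46 in transgenic, 5.61 and 5.98 in wild-type, 5.66 and 5.42 in transgenic mdx and 5.64 and 5.75 in mdx muscle. Krt14 was at 4.19 and 4.25 in transgenic, 4.25 and 4.59 in wild-type, 4.43 and 4.15 in transgenic mdx and 4.17 and 4.43 in mdx muscle. For both genes the transgenic arrays lay just under the wild-type arrays, as they did for 27.1% of all genes, and the mdx groups overlapped. The differences were -0.38 ± 0.21 and -0.15 ± 0.21 for Krt5, and -0.20 ± 0.29 and -0.01 ± 0.29 for Krt14.

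Lce1f, a late cornified envelope gene of the outermost skin layers, was close to the dim end of the arrays in both controls and far above it with the transgene. It was at 8.60 and 8.27 in transgenic, 3.26 and 3.71 in wild-type, 10.01 and 8.34 in transgenic mdx and 3.18 and 3.41 in mdx muscle. The transgenic groups overlapped each other and stood apart from the controls. The differences were 4.95 ± 0.44 (30.9-fold) and 5.88 ± 0.44 (58.9-fold). The lower transgenic mdx value came from the array with the high Gapdh ratio. Without 1 array of either group the second difference ranged from 5.04 to 6.72. A second probe set gave 3.75 and 4.73. With 32 added to each intensity before the log, which damps dim values, Lce1f differed by 3.13 and 3.88, and Dsp by 1.79 and 4.07. Krt8 then differed by 1.84 and Krt18 by 3.00 in transgenic against wild-type muscle.

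**Figure D2:**
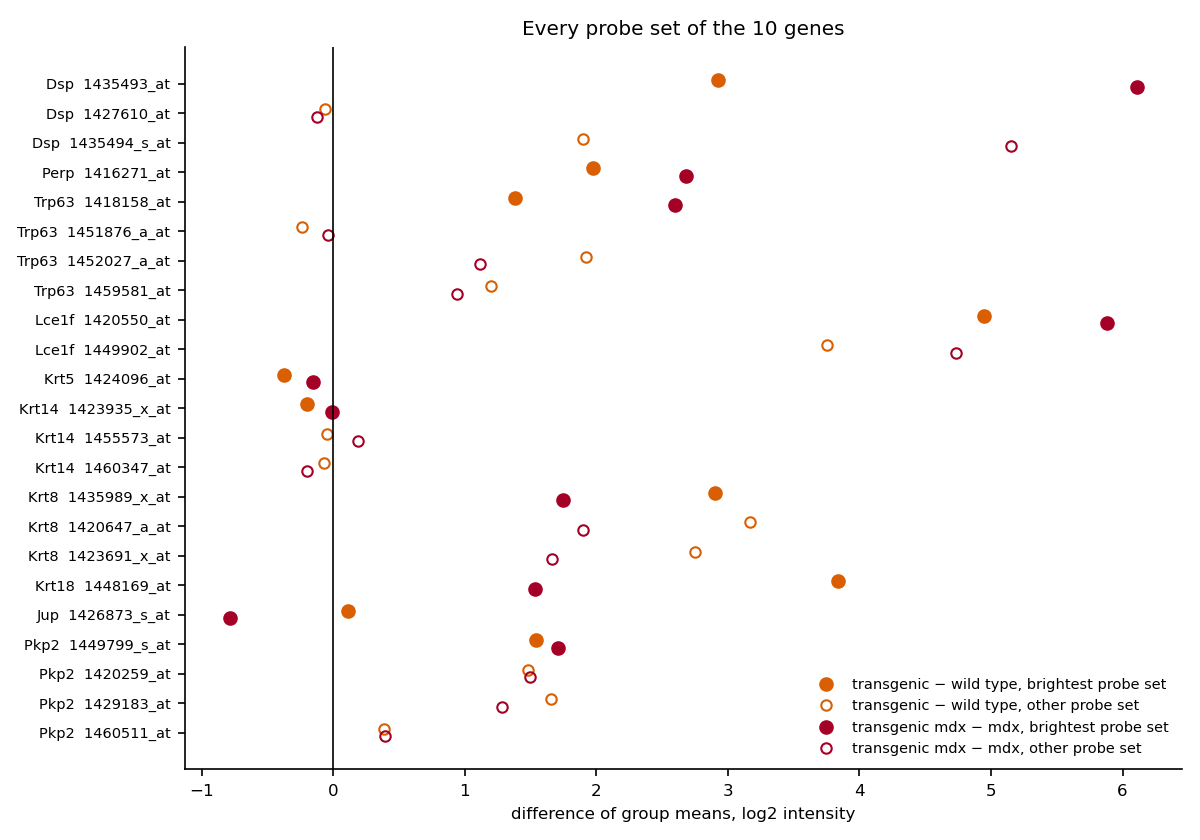
Difference of group means in log2 intensity for all 23 probe sets of the 10 genes, in transgenic minus wild type and transgenic mdx minus mdx. Filled points are the brightest probe set of a gene and open points the others. Dsp has 1 probe set near 0 beside 2 far above it, and the 3 probe sets of Krt14 lie near 0.

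In the comparison of mdx with wild-type muscle, which involves no transgene, Krt8 and Krt18 rose and Trp63 fell. Here limma with Benjamini-Hochberg adjustment over all genes called 2 higher and 1 lower, where 3.75% of all genes were called higher, 1.69% lower and 5.44% in either direction. Krt8 rose by 2.21 ± 0.38 (4.64-fold, adjusted p = 0.0108) and Krt18 by 2.92 ± 0.58 (7.56-fold, adjusted p = 0.0194). Trp63 fell by 1.16 ± 0.27 (adjusted p = 0.0360). A low wild-type level of Krt8 and Krt18, or a low mdx level of Trp63, enters both these differences and the choice of the genes, so these calls are not independent of it. All 3 were lost without the second wild-type array (adjusted p of 0.0956 for Krt8, 0.126 for Krt18 and 0.226 for Trp63). Krt8 was also lost without the second mdx array (0.0574), and Krt18 without the first wild-type (0.0898) or the first mdx array (0.0639). Trp63 was also lost without the first wild-type (0.0967), the second mdx (0.176) or either AAV-Galgt2 array (0.0506), and with the mean of its 4 probe sets it stood at -0.31 (adjusted p = 0.482). The other 7 genes did not pass: Perp differed by -1.21 ± 0.54 (adjusted p = 0.242), Dsp by -0.95 ± 0.48 (0.310), Pkp2 by 0.65 ± 0.53 (0.573), Jup by 0.53 ± 0.46 (0.601), and Lce1f, Krt5 and Krt14 by -0.19 to -0.10.

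Between AAV-Galgt2 and PBS muscle no gene was called, the delivered gene included: B4galnt2 differed by 5.78 ± 0.91 (55.0-fold) with an adjusted p of 0.233 by limma. The lack of calls among the 10 genes therefore says little. The intervals below use 1 spread per gene from all 12 muscle arrays, those of the choice included. For Dsp the SD was 0.75 after AAV-Galgt2 and 1.07 after PBS, and 0.04 to 0.61 in the groups of the other set. Its interval may thus be too narrow for this comparison. The SE of B4galnt2 holds the spread of the mdx arrays (SD 2.77), against SD 0.01 and 0.72 in the injected muscles. limma with Benjamini-Hochberg adjustment called 0% of all genes between AAV-Galgt2 and PBS muscle, and 8.28% had an unadjusted p under 0.05. Dsp was at 3.18 and 4.25 after AAV-Galgt2 and 3.68 and 5.19 after PBS, a difference of -0.72 with a 95% interval from limma of -1.79 to 0.35. Lce1f was at 2.57 and 2.97 against 2.82 and 2.77, and its interval was -0.99 to 0.94. These arrays overlapped for both genes. The intervals were -1.02 to 1.37 for Perp, -0.98 to 0.22 for Trp63, -0.69 to 0.98 for Krt8, -0.81 to 1.77 for Krt18 and -1.09 to 1.26 for Pkp2. Jup alone among the 10 had no overlap, at 10.47 and 10.48 against 8.78 and 9.64, where 25.3% of all genes had both AAV-Galgt2 arrays higher. Its difference was 1.26 ± 0.46 (2.40-fold), with an unadjusted p of 0.0194 and an adjusted p of 0.505 in limma. The intervals were -0.63 to 0.32 for Krt5 and -1.01 to 0.27 for Krt14. These arrays are on another scale than those of the transgenic set, and the difference between virus and transgene was not tested.

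**Figure D3:**
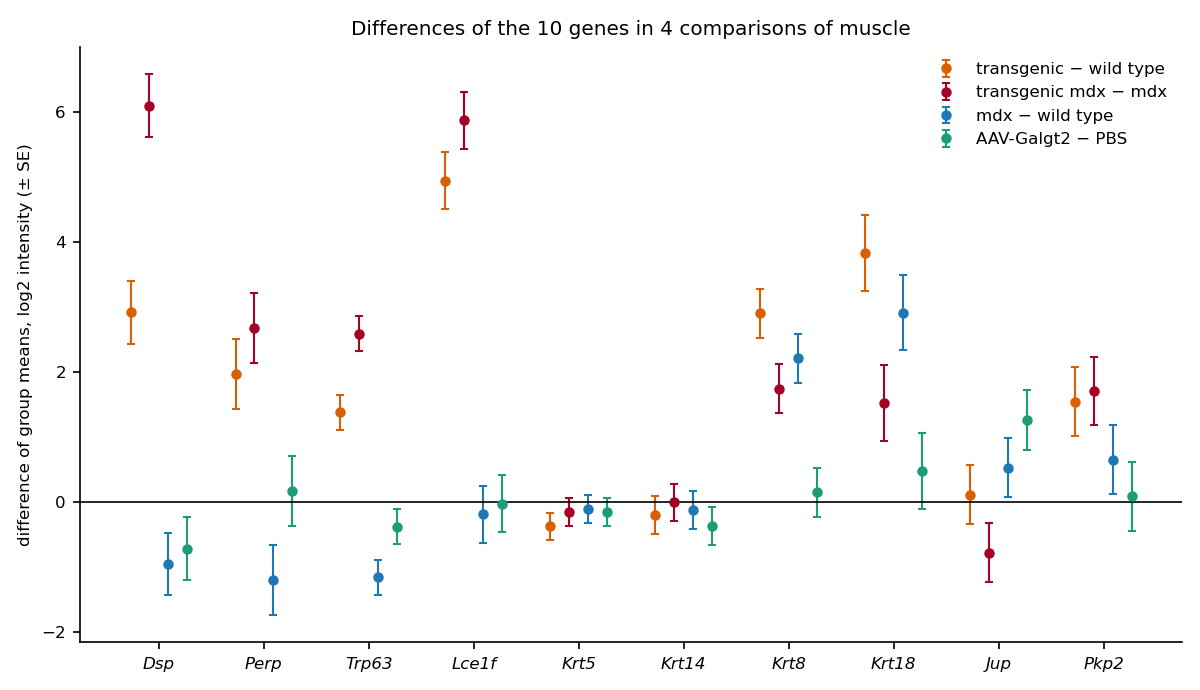
Difference of group means in log2 intensity, with SE from the limma fit of 12 arrays, for the 10 genes in 4 comparisons. Dsp, Perp, Trp63 and Lce1f lie above 0 in both transgene comparisons and at or below 0.18 in mdx minus wild type and AAV-Galgt2 minus PBS, while Krt8 and Krt18 lie above 0 in mdx minus wild type as well.

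Other genes of these structures and of skin were read from 11 further lists, written with earlier results of these data known. Among 12 other desmosome and plakin genes, 2 rose in transgenic against wild-type muscle, where 3.15% of all genes were called. Here and below, the shares of all genes called count both directions. Of those calls 67.4% were higher in this comparison and 65.3% in transgenic mdx against mdx. The 2 were Pkp1, the plakophilin of stratified epithelium (2.08 ± 0.38, adjusted p = 0.0140 by limma), and Cdsn, a cornified-layer adhesion protein (1.62 ± 0.38, adjusted p = 0.0478). Both also rose in transgenic mdx against mdx muscle, by 1.82 and 2.46, where 6.08% of all genes were called. With only the arrays of this set in the fit, Pkp1 lost both calls (adjusted p of 0.0577 and 0.0611) and Cdsn that against wild type (0.101). Cdsn was at 0.81 there with 32 added (0.0878). Pkp1 went from 3.91 and 4.71 in wild type to 6.39 and 6.40 in transgenic muscle. The desmosomal cadherins named here did not pass in these comparisons. Dsc2 was at 6.66 and 6.29 in transgenic and 6.04 and 5.03 in wild-type muscle, and at 7.56 and 7.35 in transgenic mdx and 5.71 and 5.56 in mdx muscle, with no overlap in either. It differed by 0.94 (adjusted p = 0.459) and 1.82 (adjusted p = 0.0621). Dsg2 was at 4.10 and 4.05 in transgenic and 4.06 and 4.14 in wild-type muscle, and Dsg1b stayed at or below 3.22 on all 8 arrays. Dsc2 rose in transgenic mdx against wild-type muscle by 1.92 ± 0.51 (adjusted p = 0.0477), where 7.28% of all genes were called, a call lost without any 1 of 10 of the 12 arrays (adjusted p of 0.0521 to 0.297). The call was also lost with shifted medians (0.0530), with quantile normalization (0.0622) and with the mean over probe sets, where Dsc2 differed by 0.79 (0.149).

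Of 20 other epithelial and epidermal keratins, 3 rose in transgenic against wild-type muscle, where 3.15% of all genes were called, and 2 in transgenic mdx against mdx, where 6.08% were. Krt12, the keratin of the corneal epithelium, rose by 2.51 ± 0.40 (adjusted p = 0.00817 by limma) and by 3.34 ± 0.40 (adjusted p = 0.00179). Krt80 rose by 1.56 and 1.70. Krt12 was at 7.49 and 7.70 in transgenic, 4.88 and 5.28 in wild-type, 7.66 and 7.99 in transgenic mdx and 4.36 and 4.61 in mdx muscle, so both transgenic groups stood apart. Krt7, the third, passed in transgenic muscle at 1.09 (adjusted p = 0.0487). It lost the call with shifted medians, quantile normalization, only the arrays of the set, 32 added (0.69), an intensity trend and the replicate block, at adjusted p of 0.0525 to 0.118. The suprabasal skin keratins did not pass: Krt1 was at 3.71 and 3.48 in transgenic and 3.66 and 3.63 in wild-type muscle, and Krt10 at 7.15 and 6.98 against 7.49 and 7.45.

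No other late cornified envelope gene passed the test. None of 14 was called in the 5 comparisons by limma. In transgenic against wild-type muscle 3.15% of all genes were called, and in transgenic mdx against mdx 6.08%, so no call among 14 genes says little. At an unadjusted p under 0.05 there were 2 in transgenic against wild-type muscle, as were 14.2% of all genes. The median difference of the 14 was -0.15 there and -0.02 in transgenic mdx against mdx. The measured neighbours of Lce1f in gene order were Lce1d, Lce1g, Lce1h and Lce1i. They differed by -0.49 to -0.08 in transgenic and by -0.15 to 0.58 in transgenic mdx muscle, and none passed. Among 28 other cornified envelope and differentiation genes, the transgene went with 1 higher and 1 lower call in wild-type background, where 3.15% of all genes were called, and with 3 higher and 1 lower in mdx background, where 6.08% were. Sprr1a, a small proline-rich envelope precursor, rose by 3.97 ± 0.26 (15.7-fold, adjusted p = 5.57e-05) and by 3.82 ± 0.26 (14.1-fold, adjusted p = 6.99e-05). Sprr1a was at 8.71 and 9.04 in transgenic and 4.79 and 5.01 in wild-type muscle, and it kept both calls whichever array was left out. In transgenic mdx muscle Spink5, a protease inhibitor of the epidermis, rose by 1.21 (adjusted p = 0.0399), and Tchh, the trichohyalin of hair follicles, by 1.11 (adjusted p = 0.0199). Spink5 was at 0.43 with 32 added (adjusted p = 0.0966), and it lost the call with only the arrays of the set (0.0926). Tchh was dim, at 4.52 and 4.43 in transgenic mdx and 3.36 and 3.36 in mdx muscle. With 32 added Tchh was at 0.36 and kept the call (adjusted p = 0.0327). Other envelope genes did not pass: Lor was at 4.01 and 3.91 in transgenic and 4.66 and 4.06 in wild-type muscle, Flg at 2.80 and 2.93 against 2.81 and 2.98, and Ivl at 6.03 and 6.02 against 6.15 and 5.97. Krtdap, a keratinocyte differentiation peptide, fell by 1.48 in transgenic muscle (adjusted p = 0.0227), and Dmkn, another, fell by 1.65 in transgenic mdx muscle (adjusted p = 0.0114). Dmkn was at 4.13 and 4.28 in transgenic mdx, 5.85 and 5.87 in mdx and 4.84 and 4.42 in wild-type muscle. Dmkn was also called higher in mdx against wild type, by 1.23, a call lost with the replicate block (0.0548).

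**Figure D4:**
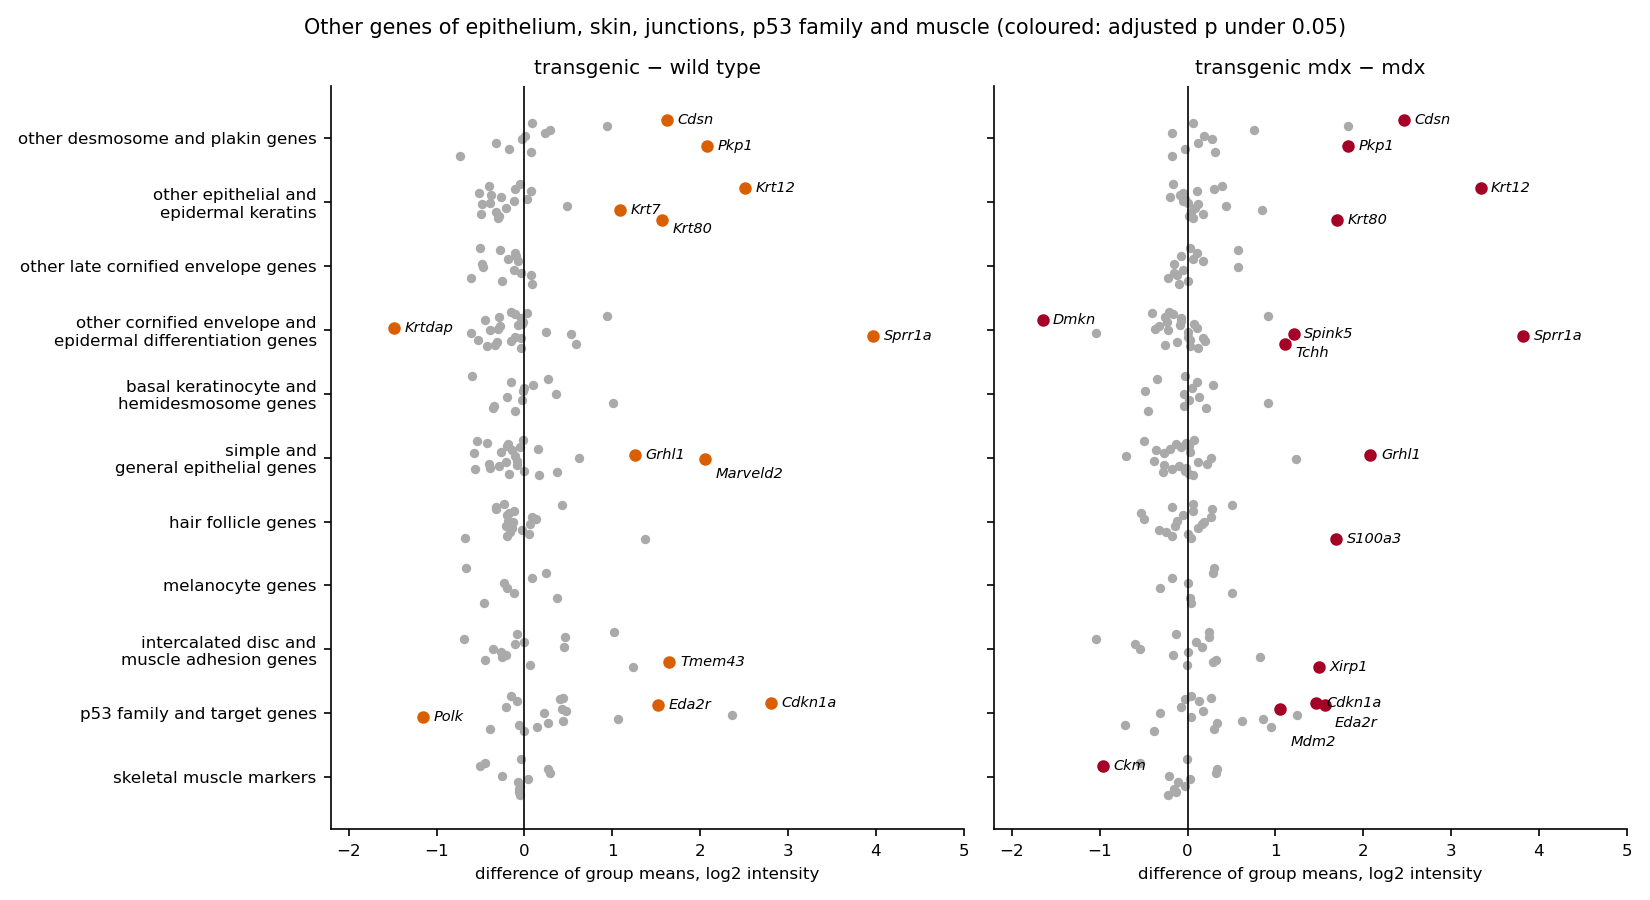
Difference of group means in log2 intensity of the genes of 11 lists in transgenic minus wild type (left) and transgenic mdx minus mdx (right). Each point is a gene, and coloured, named points passed limma at an adjusted p under 0.05. Sprr1a and Krt12 lie farthest to the right among the skin and keratin genes, and most genes of each list lie near 0.

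Few of the genes taken as skin markers passed the test in the transgenic groups. The markers fixed for epidermis, hair follicle and melanocytes, without Krt5 and Krt14, number 89 measured genes. They include all the other epithelial and epidermal keratins, so also Krt12 of the cornea and Krt7, and leave out the late cornified envelope genes. The shares below are thus not of skin genes alone. Between transgenic and wild-type muscle, 4 of them rose (Krt12, Krt80, Krt7 and Sprr1a) and 1 fell. That is 5.62% against 3.15% of all genes, with a median difference of -0.13. In transgenic mdx against mdx muscle 6 rose and 1 fell, 7.87% against 6.08%, with a median of 0.02. With Krt5 and Krt14 included, the mean log2 level of 91 markers was 4.69 and 4.71 in transgenic, 4.67 and 4.77 in wild-type, 4.81 and 4.81 in transgenic mdx and 4.56 and 4.81 in mdx muscle. Their summed intensity was 7253 and 7325 in transgenic and 6433 and 6796 in wild-type muscle. It was 8100 and 6928 in transgenic mdx and 6269 and 6628 in mdx muscle, so each transgenic group lay above its control. Called genes are part of this sum. Of it Sprr1a made 419 and 526 in transgenic, 28 and 32 in wild-type, 663 and 543 in transgenic mdx and 34 and 53 in mdx muscle. In the same order Krt80 made 294 and 237, 83 and 97, 490 and 357, and 114 and 145. Krt12 made 180 and 207, 29 and 39, 202 and 254, and 21 and 24. The sum without these genes was not taken. The part of skin tissue in the levels of the 10 genes was not tested beyond these values. Among 13 basal keratinocyte and hemidesmosome genes none was called by limma in these comparisons, with 1 in each at an unadjusted p under 0.05, as were 14.2% and 21.1% of all genes. Itgb4 was at 5.14 and 5.39 in transgenic and 5.20 and 5.37 in wild-type muscle, and Col17a1 at 3.60 and 3.49 against 3.65 and 3.74. None of 8 melanocyte genes was called by limma either, with 2 and 0 at an unadjusted p under 0.05. Of 20 hair follicle genes, S100a3 rose in transgenic mdx against mdx muscle by 1.69 (adjusted p = 0.0292). It was at 5.96 and 4.55 in transgenic mdx and at 3.42 and 3.71 in mdx muscle, at the dim end. S100a3 lost the call with 32 added, at 0.72 (adjusted p = 0.0826), and with only the arrays of the set (0.0652). Skeletal muscle markers averaged log2 13.37 to 13.58 on the 8 arrays, and Ckm, the muscle creatine kinase, fell by 0.96 in transgenic mdx against mdx muscle (adjusted p = 0.0279).

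Of 25 simple and general epithelial genes, 2 rose in transgenic against wild-type muscle, where 3.15% of all genes were called, and 1 in transgenic mdx against mdx, where 6.08% were. Grhl1, a grainyhead factor of epidermis, rose by 1.26 ± 0.25 in transgenic (adjusted p = 0.0237 by limma) and by 2.08 ± 0.25 in transgenic mdx muscle (adjusted p = 0.00181). With only the arrays of this set the first call was lost (adjusted p = 0.0666). Marveld2, the tight-junction protein tricellulin, rose by 2.05 ± 0.32 in transgenic muscle (adjusted p = 0.00762) and by 1.96 ± 0.32 in mdx against wild-type muscle (adjusted p = 0.00976). The epithelial adhesion gene Cdh1 was at 5.93 and 5.17 in transgenic and 6.31 and 5.87 in wild-type muscle, and Epcam at 4.50 and 4.84 against 4.62 and 4.997. Neither passed.

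Genes of the p53 family and its known targets were read because Perp and Trp63 belong to that pathway. Among 19 of them transgenic muscle had 2 that rose and 1 that fell against wild type, where 3.15% of all genes were called, and 3 rose in transgenic mdx against mdx, where 6.08% were. Cdkn1a, the cell-cycle inhibitor p21, rose by 2.80 ± 0.30 (6.98-fold, adjusted p = 0.000904 by limma) and by 1.46 ± 0.30 (adjusted p = 0.0202), and by 1.42 ± 0.30 in mdx against wild type (adjusted p = 0.0235, and 0.0574 with the mean over probe sets). Eda2r, a receptor of the TNF family, rose by 1.52 and 1.56. Mdm2, which restrains p53, rose by 1.06 in transgenic mdx against mdx muscle (adjusted p = 0.0121), or by 0.80 with the call lost (0.103) with the mean over probe sets. Polk fell by 1.15 in transgenic muscle (adjusted p = 0.0353), a call lost with only the arrays of the set (0.0942) and with an intensity trend (0.0637). Polk was also called lower against wild type in mdx (-1.20) and in transgenic mdx muscle (-1.16), so wild type stood above all 3 other groups of the set. Trp73, the third family gene, was at 4.90 and 5.08 in transgenic and 5.04 and 5.74 in wild-type muscle. Of 15 intercalated disc and muscle adhesion genes, Tmem43 rose in transgenic muscle by 1.65 (adjusted p = 0.00940 by limma). Xirp1 rose in transgenic mdx against mdx muscle by 1.497 (adjusted p = 0.0490). In transgenic mdx against wild-type muscle 3 of the 15 were called higher and 1 lower, where 7.28% of all genes were called. The lower was Ctnna3, at 6.44 and 5.49 against 7.66 and 8.09, a difference of -1.91.

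Some of these calls rest on single arrays. Of 13 listed genes called in transgenic against wild-type muscle, Sprr1a and Cdkn1a kept the call whichever of the 12 arrays was left out. Pkp1 lost it without the first wild-type or either transgenic array, Krt12 without the first wild-type or the second transgenic array, and Krt80 without either wild-type or the first transgenic array. Marveld2 lost it without the second wild-type array, Tmem43 without that or the second transgenic array, and Eda2r without that or the first transgenic array. Krtdap and Grhl1 lost it without any 1 of the 4 arrays compared, Polk without any 1 of 8 arrays, and Cdsn and Krt7 without any 1 of 10. Of 15 called in transgenic mdx against mdx muscle, Sprr1a, Krt12, Krt80, Grhl1 and Eda2r kept the call throughout. Cdsn and Dmkn lost it without the second transgenic mdx array, Ckm without that or the second mdx array, and Mdm2 without the first transgenic mdx array. Pkp1 lost it without the first mdx or either transgenic mdx array, Tchh without the second mdx or either transgenic mdx array, and Cdkn1a without any 1 of the 4. S100a3 lost it without any 1 of 5 arrays, Spink5 of 10 and Xirp1 of 11. In mdx against wild type, Marveld2 and Cdkn1a lost it without either wild-type or the second mdx array.

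Among the measured neighbours of Dsp, Perp and Trp63 in gene order, 1 passed the test. That was in transgenic mdx against mdx, where 6.08% of all genes were called, and none passed in transgenic against wild type, where 3.15% were. Cage1, which lies 2 genes from Dsp, rose in transgenic mdx against mdx muscle by 1.42 ± 0.29 (adjusted p = 0.0206 by limma) and differed by 0.71 in transgenic muscle (adjusted p = 0.280). Riok1 and Snrnp48, next to Dsp on its 2 sides, differed by 0.30 and 0.30 in transgenic and by 0.67 and 0.74 in transgenic mdx muscle, and neither passed. Ssr1, the remaining measured neighbour of Dsp, differed by 0.61 in transgenic, with no overlap, and by -0.06 in transgenic mdx muscle. It did not pass either. Of the 3 measured neighbours of Perp and the 2 of Trp63, none passed in either comparison, and P3h2 near Trp63 was at 0.81 and 0.89.

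Profiles over the 8 arrays, each taken relative to the gene's wild-type mean, were compared by their root mean square difference in log2. Nearest to Trp63 were Rspo3 (0.231), Flrt2 (0.291), Fgf7 (0.342), Gm20045 (0.362) and Map2 (0.377). Nearest to Perp were Mpzl3 (0.524), Camta1 (0.538), Rspo3 (0.571), Cst6 (0.614) and Trp63 (0.634). From the side of Trp63, Perp stood at rank 85. Dsp was nearest to D13Ertd608e (0.547), AF067061 (0.566), Usp17la (0.797), Muc15 (0.802) and Egfbp2 (0.860). Lce1f was nearest to Gja3 (0.516), Derl3 (0.677), F2 (0.791), Anxa8 (0.927) and Mt4 (0.971), with Dsp at rank 8.

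In C2C12 cells the genes were read from 1 array a condition, with no test. The labels give myoblast and myotube, but Myh4, a myosin of mature fibres, was at 9.62 on the array labelled C2C12 myoblast and 4.40 on that labelled C2C12 myotube, which goes against those labels. B4galnt2 was at 9.76 and 10.82 on the arrays labelled C2C12-Galgt2 and at 4.58 and 4.81 on the others. Dsp ranged from 4.54 to 4.77 over the 4 arrays and Lce1f from 3.60 to 4.53. Krt8 ranged from 4.30 to 5.10 and Krt18 from 4.01 to 4.81, so these 4 genes stayed low on the arrays with Galgt2 too. Trp63 was at 9.98 on the array labelled C2C12 myoblast, 7.47 on that labelled C2C12 myotube, 5.87 on that labelled C2C12-Galgt2 myoblast and 8.27 on that labelled C2C12-Galgt2 myotube. Perp was at 5.16, 7.65, 7.60 and 4.82 in the same order. Set against each other by label, neither gene was higher on both Galgt2 arrays. With the untransfected pair turned, as their Myh4 levels would have it, Trp63 was lower on both Galgt2 arrays and Perp was at 7.60 against 7.65 and 4.82 against 5.16.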

How the data were processed

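Total RNA of mouse gastrocnemius and C2C12 cells was measured on 16 Affymetrix arrays. The deposited intensity values come from GCOS and RMA, per the submitters' processing notes; which of these made the values, and whether sets were processed together, is not given in the sources used here. Values ran from 3.9 to 24269 and were taken as linear. Probe sets were named through the supplied platform annotation: of 45101, 34958 carry 1 symbol, 932 several and 9211 none, and only the first kind was used. The brightest probe set stood for each of 18194 genes.

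All 12 muscle arrays were fitted on the log2 scale with 6 group means in limma 3.58.1 (R 4.3.3), with eBayes, two-sided tests, Benjamini-Hochberg adjustment over all genes and a threshold of 0.05. The script was tested on simulated data. Arrays have no read depth, so 2 arrays a group limit the precision. The 10 genes and the 11 other lists, which hold 209 genes of which 186 were measured, were chosen with earlier results of these data known. Named beside the 10 genes are, per list and comparison, up to 4 called genes of largest difference whose arrays do not overlap. Measured genes among 3 neighbours on each side, the 5 most similar profiles, B4galnt2 and Dmd are named too. Calml3, Cdh15 and Rprm met the first rule only in transgenic mdx against wild-type muscle, where they rose by 1.77, 0.99 and 1.20. Cdh15 and Rprm lost the call under several alternatives. Skin and muscle markers named at their level without a call were chosen as defining markers. Replicate numbers were not used as pairs in the main fit. The correlation of replicate differences was 0.542 between wild type and transgenic, -0.439 between wild type and mdx and -0.302 between mdx and transgenic. For the remaining pairs of groups within a set it ran from -0.0882 to 0.182. Same-numbered arrays thus deviated together, or in opposite directions, in some groups, and what they share was not tested. The labels do not tie AAV-Galgt2 arrays to PBS arrays of a mouse. Alternatives were other scalings, fits within a set, the replicate block, the mean of probe sets, an added 32, a filter at log2 6, an intensity trend and each array left out.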

Additional observations from a re-analysis of the deposited data

Results flagged for a closer look

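For 3 of the 10 genes both arrays moved one way with the transgene in mdx muscle, relative to the mean of the controls, and both moved the other way after AAV-Galgt2 relative to the PBS muscles. Dsp differed by 6.11 in transgenic mdx against mdx and by -0.72 in AAV-Galgt2 against PBS muscle. Trp63 differed by 2.60 and -0.38, and Jup by -0.78 and 1.26. Without the second PBS array Dsp was at 0.04 after AAV-Galgt2, and with the mean over its probe sets Trp63 was at 0.00339, so for these 2 genes the opposite direction depends on those choices. The difference between these comparisons was not tested.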

How the results depend on the processing

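Counts of the 10 genes with no overlap in the 3 transgene comparisons, 7, 6 and 7, stayed within 1.5 times under every alternative run, and no difference of a called gene changed sign. Called genes of the other lists numbered 13 in transgenic against wild type and 7 with only the arrays of that set, and 4 to 14 with 1 array left out. With 1 array left out they numbered 7 to 15, from 15, in transgenic mdx against mdx, 9 to 22, from 20, in transgenic mdx against wild type, and 0 to 6, from 4, in mdx against wild type. In mdx against wild type, 3 of the 10 genes were called, and 0 to 3 with 1 array left out. The replicate block called 2 of the 10 genes there, losing Trp63 (adjusted p = 0.0548), and 12, 14, 19 and 3 listed genes in these 4 comparisons. A crossed pairing of the mdx arrays, chosen after seeing the data, called 3 of the 10 and 4 listed genes. Trp63 was also lost with only the arrays of the set (adjusted p = 0.0609), and Krt18 with 32 added (0.0694). With the mean over probe sets, Dsp differed by 1.59 and 3.71 in place of 2.93 and 6.11, and Trp63 by 1.07 and 1.15 in place of 1.38 and 2.60. AAV-Galgt2 against PBS gave 0 calls under every alternative. The cause of these changes was not tested. Substrain, the 2 arrays a group and levels near the dim end limit what these values show.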
